A study of Homo sapiens with 18 samples.

Results

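The genes described here are the 10 core genes of the small RNA pathway in EA.hy926 endothelial cells: DROSHA and DGCR8, XPO5, DICER1, TARBP2 and PRKRA, and the Argonaute genes AGO1, AGO2, AGO3 and AGO4. They were picked by gene symbol from the 62754 genes of the count matrix, and each symbol was found there once. All 10 passed the filter on low counts that left 15167 genes for testing. Their estimated counts per library ran from 712 (lowest for AGO4) to 16286 (highest for DICER1). The question asked of them was whether transfected siRNA or poly(I:C) shifts the levels of this machinery.

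EA.hy926 is a human line made by fusing umbilical vein endothelial cells with a lung epithelial line, and every library came from it. Mock cells were given the lipid reagent without RNA. The siNT group was transfected with non-targeting siRNA and the siELMO1 group with pooled siRNAs to ELMO1, both at 10 nM. All cells were moved to low serum before sampling, so this is shared by all groups. The 0 h samples were taken 48 h after transfection. The 24 h samples had then been exposed for 24 h to 1 μg/ml of poly(I:C), a synthetic double-stranded RNA. There were 3 libraries in each of 6 conditions, described as biological replicates of this single line, and the p-values measure the spread between them. No cells were kept for the same 24 h without poly(I:C), so the effect of poly(I:C) and that of a further day in low serum cannot be told apart. The siNT cultures are described as losing many cells to death under poly(I:C). In bulk RNA, fewer cells of a kind and less RNA per cell cannot be told apart.

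MicroRNAs start as long transcripts that the Microprocessor, made of the nuclease Drosha and its RNA-binding partner DGCR8, cuts into hairpins in the nucleus. Exportin-5, the product of XPO5, carries the hairpins to the cytoplasm, where Dicer, helped by the double-stranded RNA-binding proteins TRBP (TARBP2) and PACT (PRKRA), trims them to short duplexes. An Argonaute protein keeps a single strand of the duplex and uses it to find target mRNAs, and AGO2 is the Argonaute best known for cutting its targets. A synthetic siRNA duplex does not need Drosha or exportin-5 and joins the pathway at Argonaute loading. TRBP and PACT are also known for binding PKR, a kinase that senses double-stranded RNA.

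Some RNAs that this machinery processes come from genes measured here, and their mature sequences show what leaves the pathway. Those from hairpins within exons of DGCR8 are shown because the Microprocessor is known to cut its own partner's mRNA there, and those of 3 microRNA host genes because these hosts are described further on. Sequences are RefSeq mature microRNAs on GRCh38.p14, 5′ to 3′, with the seed (bases 2 to 8) in capitals. The 3 from DGCR8 lie on the plus strand at chr22:20086072-20086093 (miR-1306-5p), chr22:20086112-20086129 (miR-1306-3p) and chr22:20085797-20085818 (miR-3618). miR-22-3p lies at chr17:1713914-1713935 and miR-100-5p at chr11:122152275-122152296, both on the minus strand, and miR-155-5p at chr21:25573983-25574006 on the plus strand.
hsa-miR-1306-5p: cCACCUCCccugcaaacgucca
hsa-miR-1306-3p: aCGUUGGCucugguggug
hsa-miR-3618: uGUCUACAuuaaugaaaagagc
hsa-miR-22-3p: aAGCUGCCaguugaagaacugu
hsa-miR-100-5p: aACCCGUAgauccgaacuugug
hsa-miR-155-5p: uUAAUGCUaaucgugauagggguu
No 2 of these 6 share a seed. The libraries were made from mRNA and do not measure mature microRNAs, so the values given below are of the long transcripts only.

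Library totals ran from 40374756 to 73850946 estimated counts. ELMO1, the siRNA target, was 8.86-fold lower in siELMO1 than in Mock at 0 h (edgeR adjusted p = 4.5e-08). The interferon-induced IFIT1 rose 149-fold with poly(I:C) in Mock cells (adjusted p = 5.1e-17). At 24 h IFIT1 was 1.40-fold lower in siNT than in Mock (edgeR adjusted p = 0.0013) and not called in siELMO1 (adjusted p = 0.45). The other poly(I:C) check, CCL5, was then 5.27-fold below Mock in siNT (edgeR adjusted p = 6.9e-07) and 2.12-fold below it in siELMO1 (adjusted p = 0.0016). The endothelial markers summed to between 1503 and 3178 CPM (counts per 1000000, scaled with TMM factors), all 9 were detected in every library, and the 3 siELMO1 libraries were above the Mock and siNT libraries of the same time. Of the epithelial markers, KRT7, KRT8 and KRT18 were at 189 CPM or more in every library, while CDH1 and SFTPC were at 0 throughout. The epithelial markers summed to 1519 to 2227 CPM at 0 h and to 844 to 1316 CPM at 24 h, lower at 24 h in each transfection. The leukocyte markers summed to 1.58 to 7.52 CPM, nearly all LYZ. The leukocyte marker CD3E was at 0 in all libraries and PTPRC reached at most 0.497 CPM. The part of these marker levels in the results below was not tested. Scaling by library totals in place of TMM factors moved the median of all genes by −0.12 on the log2 scale for Mock at 24 h against 0 h, where the share of called genes that were higher then went from 50.9% to 37.9%. It also moved that share from 55.5% to 43.9% for siELMO1 against Mock at 0 h. It reversed none of the 120 values of the 10 genes and changed 7 of their calls.

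Before poly(I:C), members were called with both siRNAs, in different numbers and directions. In siNT against Mock at 0 h, 9 of the 10 genes passed the edgeR test, 8 higher and only DROSHA lower, whereas of all genes tested 51.6% were called, 27.6% higher and 24.0% lower. The median log2 fold change of the 10 was 0.35, beside 0.03 over all genes tested. In siELMO1 against Mock at 0 h, 6 of the 10 were called, 3 higher (DICER1, XPO5 and AGO4) and 3 lower (AGO2, AGO1 and DGCR8), with 50.2% of all genes called, 27.9% higher and 22.4% lower. A share of 6 in 10 is close to that background. With siELMO1 set against siNT at 0 h, 8 were called, 2 higher (DROSHA and AGO4) and 6 lower, beside 62.6% of all genes, 31.3% in each direction. These 3 comparisons share libraries and are not independent of each other. With 3 libraries against 3, an exact permutation test of a single gene cannot go below p = 0.10, so all p-values come from the edgeR model fitted across genes.

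After 24 h of poly(I:C), between 5 and 8 of the 10 members were still called in each comparison of transfections. Between siNT and Mock 8 of the 10 were called, 6 higher and 2 lower, beside 50.2% of all genes, 25.2% higher and 24.9% lower. Between siELMO1 and Mock 5 were called, 3 higher and 2 lower, beside 43.6% of all genes, 21.6% higher and 22.0% lower. A share of 5 in 10 is close to that background. Between siELMO1 and siNT 7 were called, 2 higher (DROSHA and XPO5) and 5 lower, beside 52.6% of all genes, 26.0% higher and 26.5% lower. DICER1 and XPO5 were called higher than Mock with both siRNAs at both times, XPO5 in siNT at 24 h only narrowly. AGO4 was above Mock in every siRNA library at both times too, without a call in siNT at 24 h.

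**Figure D1:**
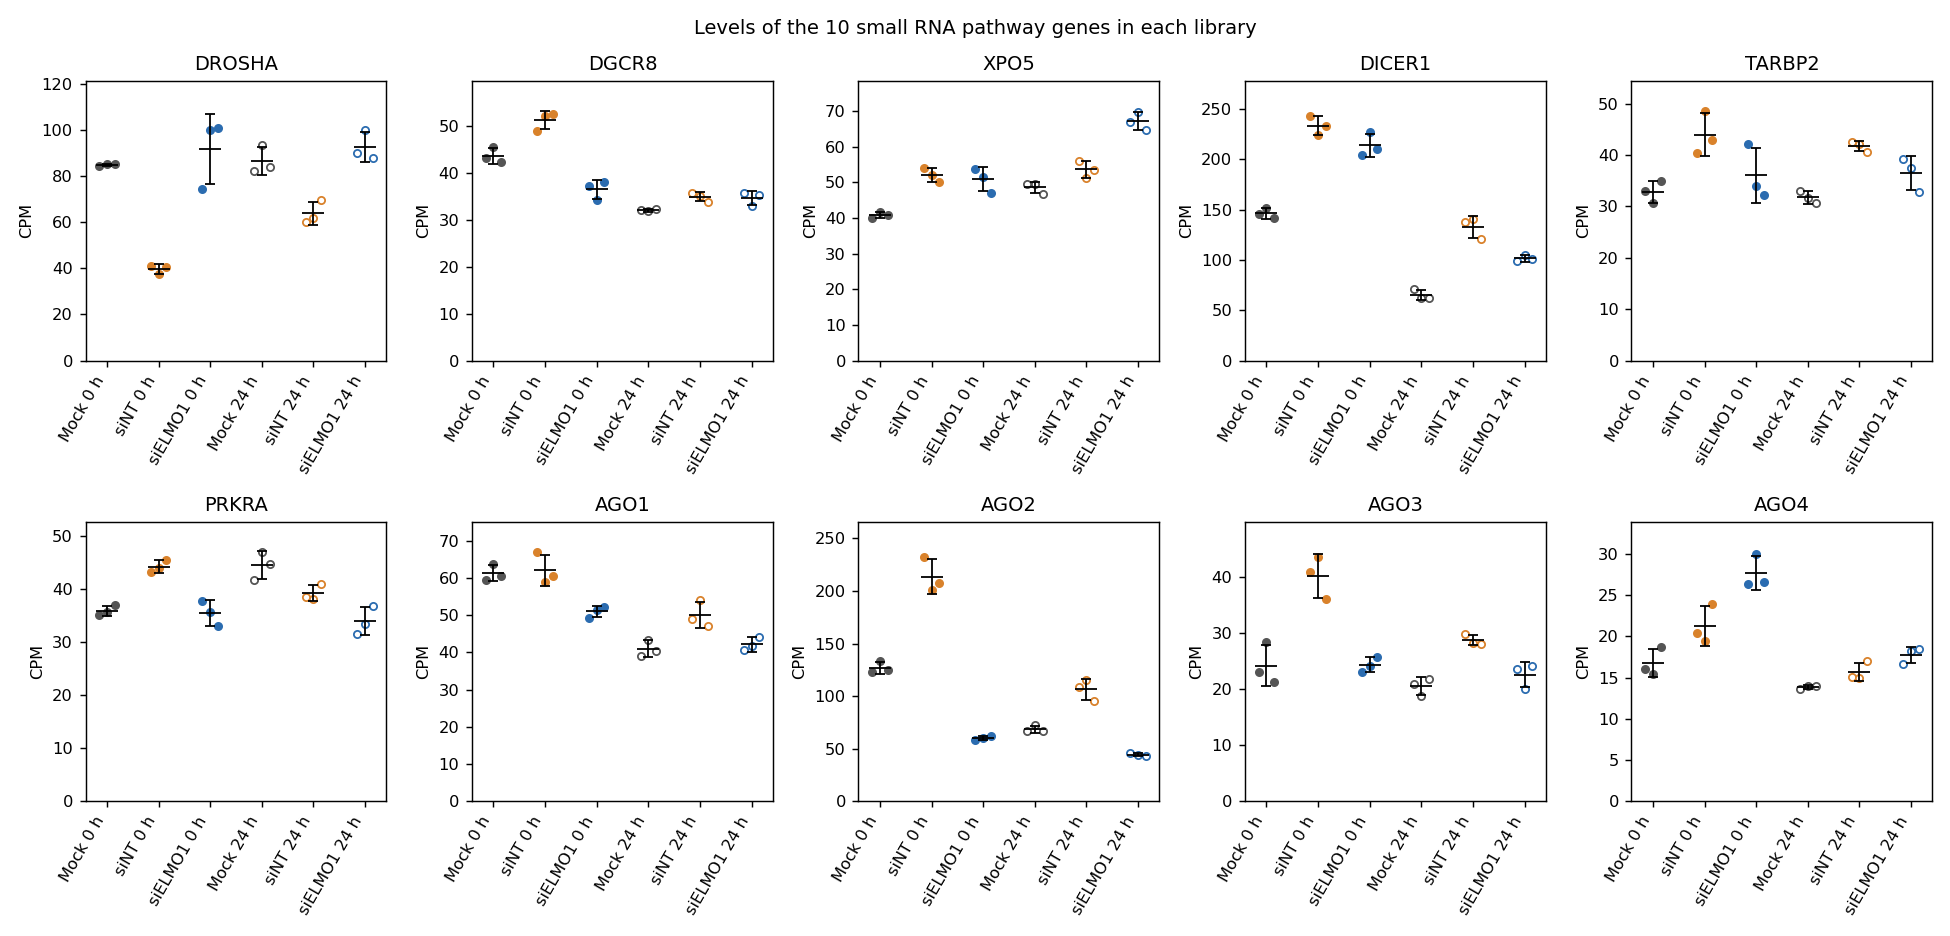
Level of each of the 10 genes in CPM (y axis, from 0) in the 3 libraries of each condition; points are libraries (filled, 0 h; open, 24 h), and bars are the mean ± SD. DROSHA is lowest in siNT at 0 h, AGO2 is highest in siNT and lowest in siELMO1 at each time, and DICER1 is lower at 24 h than at 0 h in each transfection.

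DROSHA, the nuclease of the Microprocessor (chromosome 5, 31400494 to 31532196, minus strand), stood out by being low only with the non-targeting siRNA. Its level at 0 h was 84.3, 85.4 and 85.1 CPM for Mock, 41.0, 37.4 and 40.6 CPM for siNT, and 74.4, 100.0 and 101 CPM for siELMO1. The siNT libraries lay far below the other 6, whereas the siELMO1 libraries lay on both sides of Mock. In siNT it was 2.14-fold lower than in Mock (log2 −1.097 ± 0.09 SE, edgeR adjusted p = 3.5e-08). Against siNT, siELMO1 was 2.31-fold higher (adjusted p = 4.4e-09), and against Mock it differed by 0.11 on the log2 scale (95% interval −0.07 to 0.29, adjusted p = 0.35). That last value rests on siELMO1 replicate 1, without which it was 0.24 (adjusted p = 0.0073). At 24 h the siNT libraries, at 60.2, 62.0 and 69.5 CPM, were again below all Mock libraries (82.2 to 93.4 CPM) and all siELMO1 libraries (88.1 to 99.8 CPM). The difference from Mock was then 1.35-fold (adjusted p = 0.00083). No annotated exon of another gene overlaps those of DROSHA, and the transcript DROSHA-201 held 58.5% to 95.8% of its counts in every library.

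DGCR8, the RNA-binding partner in the Microprocessor (chromosome 22, 20080221 to 20111877, plus strand), moved by less and in other directions than DROSHA. At 0 h the Mock libraries were at 42.3 to 45.5 CPM, siNT at 49.1 to 52.6 CPM and siELMO1 at 34.3 to 38.0 CPM, and these 3 ranges did not overlap. It was higher in siNT than in Mock (log2 0.23 ± 0.05 SE, edgeR adjusted p = 0.0013) and lower in siELMO1 than in Mock (−0.26 ± 0.05, adjusted p = 0.00056). At 24 h the Mock libraries were at 31.8 to 32.4 CPM. All siNT (33.9 to 35.8 CPM) and siELMO1 libraries (32.9 to 35.8 CPM) were above them. Still, no pair of transfections differed by the edgeR test (adjusted p of 0.061, 0.097 and 0.87). Without siELMO1 replicate 2, siELMO1 against Mock passed it (log2 0.15, adjusted p = 0.049). Exons of TRMT2A, a tRNA methyltransferase gene at 15.6 to 21.9 CPM, overlap DGCR8 on the other strand. TRMT2A passed the test in neither comparison with Mock at 0 h (adjusted p of 0.29 and 0.15). At 24 h against 0 h it was called higher in siELMO1 (log2 0.27, edgeR adjusted p = 0.02). It was not called in siNT (0.22, edgeR adjusted p = 0.052) or in Mock (0.09, edgeR adjusted p = 0.4). How strand was used in counting is not stated, so reads from the shared bases cannot be assigned with certainty.

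XPO5, which encodes the export receptor (chromosome 6, 43522334 to 43576038, minus strand), was higher with either siRNA. It was 40.1, 41.7 and 40.9 CPM in Mock at 0 h, 54.0, 52.1 and 49.98 CPM with siNT, and 53.9, 51.6 and 47.1 CPM with siELMO1. All 6 siRNA libraries were above all Mock libraries, and both kinds of siRNA cells overlapped each other. The fold changes against Mock were 1.27 for siNT (edgeR adjusted p = 4.3e-05) and 1.24 for siELMO1 (adjusted p = 0.00012). At 24 h XPO5 reached its highest level in siELMO1, at 64.8 to 69.8 CPM, against 46.9 to 49.6 CPM in Mock (1.38-fold, adjusted p = 2.4e-06). The siNT libraries, at 51.3 to 56.1 CPM, were 1.103-fold above Mock at 24 h with adjusted p = 0.041, and this call was lost in 5 of 6 fits that left out 1 library: each Mock library at 24 h and siNT replicates 1 and 3 (adjusted p from 0.03 to 0.16 over the 6). POLR1C, a subunit gene of RNA polymerases I and III whose exons overlap XPO5 on the other strand, was also higher in siNT than in Mock at 0 h (log2 0.38, adjusted p = 0.00045) but not called in siELMO1 (0.04, adjusted p = 0.73). Its part in the XPO5 counts was not tested.

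DICER1, the gene of the cytoplasmic nuclease (chromosome 14, 95086228 to 95158010, minus strand), was the member most clearly raised by both siRNAs. The Mock libraries at 0 h were at 146, 152 and 141 CPM, siNT at 243, 224 and 233 CPM and siELMO1 at 204, 227 and 210.4 CPM. No siRNA library overlapped Mock. It was 1.60-fold higher in siNT (log2 0.67 ± 0.06 SE, edgeR adjusted p = 1.1e-07) and 1.46-fold higher in siELMO1 (0.55 ± 0.06, adjusted p = 1.2e-06). The direct difference between the siRNAs at 0 h was −0.13 (95% interval −0.25 to −0.00296) with adjusted p = 0.09, and without siELMO1 replicate 2 it was −0.17 with adjusted p = 0.043. At 24 h the order was siNT (121 to 141 CPM), siELMO1 (98.9 to 105 CPM) and Mock (62.3 to 70.8 CPM), with no overlap between any pair. The fold against Mock was then 2.04 for siNT (adjusted p = 1.5e-09) and 1.56 for siELMO1 (adjusted p = 3.8e-07), and siELMO1 was 1.31-fold below siNT (adjusted p = 6.3e-05). DICER1-AS1, a long noncoding RNA on the other strand, stayed at or below 0.774 CPM in every library.

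TARBP2, the gene of the Dicer partner TRBP (chromosome 12, 53500921 to 53506431, plus strand), was higher with the non-targeting siRNA at both times. It was 30.7 to 35.0 CPM in Mock and 40.3 to 48.6 CPM in siNT at 0 h (1.34-fold, edgeR adjusted p = 0.001), and 30.6 to 33.0 CPM against 40.7 to 42.5 CPM at 24 h (1.31-fold, adjusted p = 0.002). In siELMO1 the libraries overlapped Mock at both times, with log2 differences of 0.14 (95% interval −0.04 to 0.32) and 0.20 (0.02 to 0.39), neither of them called (adjusted p of 0.24 and 0.09). Without siELMO1 replicate 3 the 24 h value was 0.27 with adjusted p = 0.036. siELMO1 was called lower than siNT at 0 h (log2 −0.28, adjusted p = 0.014) although its libraries overlapped those of siNT. That call was lost without siNT replicate 2, siELMO1 replicate 2 or siELMO1 replicate 3 (over the 6 fits without 1 library, log2 from −0.41 to −0.20, adjusted p up to 0.088).

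PRKRA, the gene of PACT (chromosome 2, 178431292 to 178451512, minus strand), changed direction between the times. In siNT it was 43.1 to 45.5 CPM at 0 h, above Mock at 35.1 to 36.9 CPM (log2 0.30 ± 0.06 SE, edgeR adjusted p = 0.0007). At 24 h the siNT libraries (38.1 to 40.9 CPM) were below Mock (41.8 to 47.0 CPM), by −0.18 ± 0.06 (adjusted p = 0.024), a call lost in 4 of 6 fits that left out 1 library (Mock replicates 2 and 3 and siNT replicates 1 and 2, adjusted p up to 0.11). siELMO1 did not differ from Mock by the test at 0 h (−0.02, 95% interval −0.14 to 0.11, adjusted p = 0.86) and was lower at 24 h (−0.39 ± 0.06, adjusted p = 8.2e-05). siELMO1 was also below siNT at 24 h (−0.21, adjusted p = 0.011), a call lost without siELMO1 replicate 1 (adjusted p = 0.069). These gene-level values mix transcripts of different kinds, as described below.

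The Argonaute genes did not move as a group. AGO2 (chromosome 8, 140520156 to 140635633, minus strand) had the widest range of the 10, 2.27 on the log2 scale between its highest and lowest condition means, and the siRNAs moved it in opposite directions. Levels at 0 h were 123, 133 and 125 CPM for Mock, 232, 201 and 208 CPM for siNT, and 58.6, 60.2 and 62.4 CPM for siELMO1. The 3 transfections formed separate ranges. Against Mock it was 1.68-fold higher in siNT (log2 0.75 ± 0.07 SE, edgeR adjusted p = 4.3e-08) and 2.10-fold lower in siELMO1 (−1.07 ± 0.07, adjusted p = 4.0e-10). Between the siRNAs the difference was 3.54-fold (adjusted p = 3.3e-13). At 24 h the order was the same, with 95.8 to 115 CPM in siNT, 66.5 to 72.4 CPM in Mock and 42.7 to 45.6 CPM in siELMO1. siNT was then 1.55-fold above Mock (adjusted p = 5.3e-07) and siELMO1 1.55-fold below it (adjusted p = 7.0e-07).

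AGO4, AGO1 and AGO3 lie in a row on the plus strand of chromosome 1 (35808016 to 35857890, 35869808 to 35930532 and 35930718 to 36072500), with 185 bases between AGO1 and AGO3, yet each had its own pattern at 0 h. AGO3 was 36.1 to 43.7 CPM in siNT against 21.3 to 28.4 CPM in Mock (1.66-fold, edgeR adjusted p = 9.1e-06), while siELMO1, at 23.1 to 25.8 CPM, lay within the Mock range. AGO4 went from 15.5 to 18.7 CPM (Mock) through 19.4 to 23.9 CPM (siNT) to 26.4 to 30.0 CPM (siELMO1), in steps without overlap. Its fold against Mock was 1.27 in siNT (adjusted p = 0.0035) and 1.65 in siELMO1 (adjusted p = 2.5e-06), and siELMO1 exceeded siNT by 1.30-fold (adjusted p = 0.0012).

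For AGO1 the Mock libraries were at 59.5 to 63.7 CPM, siNT at 58.9 to 66.9 CPM and siELMO1 at 49.2 to 52.3 CPM. It was lower in siELMO1 than in Mock (log2 −0.26 ± 0.06 SE, edgeR adjusted p = 0.002), and in siNT the difference was 0.02 (95% interval −0.10 to 0.14, adjusted p = 0.82). At 24 h AGO1 was higher in siNT than in Mock (log2 0.29, adjusted p = 0.0011), AGO3 too (0.49, adjusted p = 0.00068), and AGO4 was higher in siELMO1 (0.36, adjusted p = 0.0038). For AGO4 in siNT at 24 h the 3 libraries were above all Mock libraries, at 15.0 to 17.0 against 13.6 to 14.0 CPM, and the test did not call it (adjusted p = 0.11). Exons of long noncoding RNAs on the other strand overlap AGO1 and AGO3, and none overlap AGO4. An unnamed gene on the same strand overlaps an exon of AGO2.

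**Figure D2:**
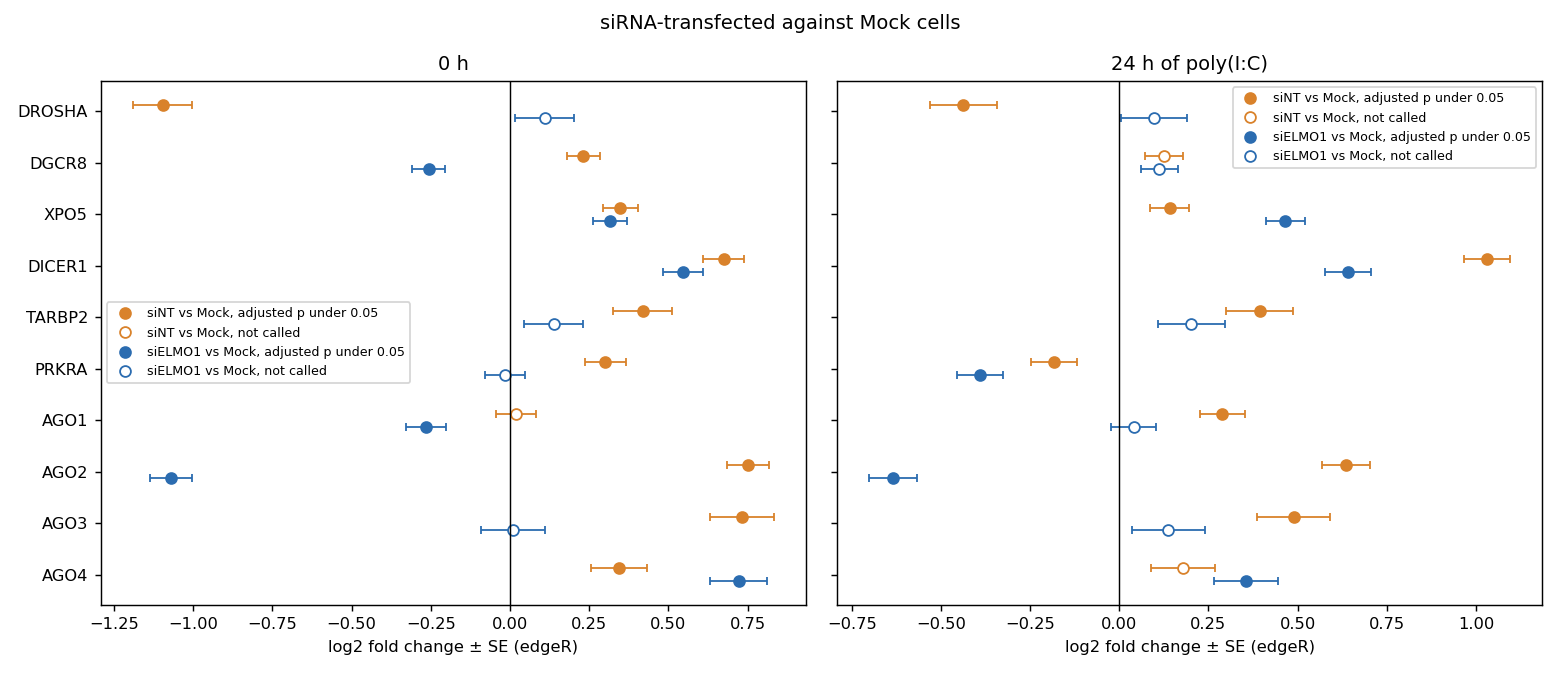
Log2 fold change against Mock (x axis, ± SE from edgeR) of each gene for siNT (orange) and siELMO1 (blue) at 0 h (left) and after 24 h of poly(I:C) (right); filled points passed the test and open points did not. DICER1 and XPO5 lie right of 0 for both siRNAs at both times, AGO2 lies on opposite sides (0.75 and −1.07 at 0 h), and DROSHA is left of 0 for siNT and not for siELMO1.

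With poly(I:C), the members that changed were mostly lower. In Mock cells 7 of the 10 were called, 5 lower (DICER1, AGO2, AGO1, DGCR8 and AGO4) and 2 higher (PRKRA and XPO5), beside 60.3% of all genes, 30.7% higher and 29.6% lower. In siNT cells 8 were called, 7 lower and DROSHA higher, beside 53.8% of all genes, 28.6% higher and 25.2% lower. In siELMO1 cells 5 were called, 4 lower (DICER1, AGO4, AGO2 and AGO1) and XPO5 higher, beside 54.9% of all genes, 28.0% higher and 26.9% lower. The median log2 fold changes of the 10 were −0.26, −0.37 and −0.09 in the 3 transfections, where those of all genes tested were 0.01, 0.01 and −3.99e-05. DICER1, AGO1, AGO2 and AGO4 fell in all 3 transfections.

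DICER1 fell the most in Mock and siELMO1. From the levels given above it dropped 2.25-fold in Mock (log2 −1.17 ± 0.06 SE, edgeR adjusted p = 4.2e-11), 1.75-fold in siNT (−0.81 ± 0.06, adjusted p = 8.8e-09) and 2.11-fold in siELMO1 (−1.07 ± 0.06, adjusted p = 1.7e-10). The 24 h libraries were below the 0 h libraries of the same transfection without exception. The fall in siNT was smaller than that in Mock by 0.36 ± 0.09 (interaction, adjusted p = 0.0057).

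AGO2 fell 1.85-fold in Mock (adjusted p = 2.6e-09), 2.01-fold in siNT (adjusted p = 8.3e-10) and 1.37-fold in siELMO1 (edgeR adjusted p = 2.0e-05), where its level was lowest to begin with. The fall in siELMO1 was smaller than in Mock by 0.44 ± 0.09 on the log2 scale (interaction, adjusted p = 0.0022). AGO1 fell 1.49-fold in Mock (adjusted p = 3.6e-07), and by 1.24-fold and 1.21-fold in siNT and siELMO1 (adjusted p of 0.00047 and 0.0013). AGO4 fell 1.21-fold, 1.35-fold and 1.56-fold in Mock, siNT and siELMO1 (adjusted p of 0.014, 0.00049 and 8.8e-06). Without Mock replicate 3 at 0 h the first of these AGO4 calls was lost (log2 −0.22, adjusted p = 0.054).

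AGO3 was called lower in siNT alone (log2 −0.48 ± 0.10 SE, edgeR adjusted p = 0.00057). In Mock the change was −0.24 with adjusted p = 0.051, and it passed the test when Mock replicate 1 or 3 of either time was left out (4 of 6 fits, adjusted p from 0.0078 to 0.21) or when libraries were scaled by their totals (−0.36, adjusted p = 0.005). The AGO3 response in siNT was not shown to differ from that in Mock (difference −0.24, adjusted p = 0.22).

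DGCR8 fell 1.36-fold in Mock (edgeR adjusted p = 1.0e-06) and 1.47-fold in siNT (adjusted p = 1.0e-07), and in siELMO1, where it was already lower at 0 h, it changed by −0.08 (95% interval −0.18 to 0.03, adjusted p = 0.24). DROSHA rose in siNT by 1.61-fold (adjusted p = 8.1e-06) from its low level at 0 h and changed by 0.03 and 0.02 in Mock and siELMO1 (95% intervals −0.15 to 0.21 and −0.17 to 0.20). XPO5 rose 1.19-fold in Mock (adjusted p = 0.00078) and 1.32-fold in siELMO1 (adjusted p = 7.6e-06). The call in Mock was lost when libraries were scaled by their totals (log2 0.13, adjusted p = 0.074). In siNT the change was 0.04 on the log2 scale (−0.06 to 0.15, adjusted p = 0.52). PRKRA rose in Mock (log2 0.31, adjusted p = 0.00043), fell by 0.17 in siNT (adjusted p = 0.028) and was at −0.07 in siELMO1 (adjusted p = 0.41). The siNT call was lost in 4 of 6 fits without 1 library, namely replicates 2 and 3 at 0 h and 1 and 2 at 24 h (adjusted p up to 0.092). TARBP2 passed the test in no transfection, with log2 changes of −0.05, −0.07 and 0.02 and 95% intervals within −0.26 to 0.20.

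**Figure D3:**
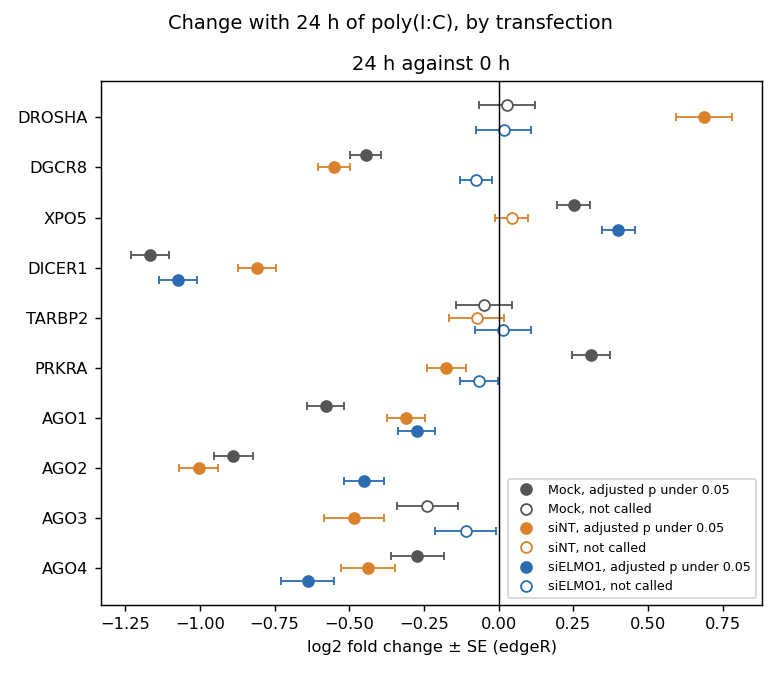
Log2 fold change of 24 h of poly(I:C) against 0 h (x axis, ± SE from edgeR) for each gene in Mock (gray), siNT (orange) and siELMO1 (blue) cells; filled points passed the test. DICER1, AGO1, AGO2 and AGO4 lie left of 0 in all 3, and DROSHA passed the test in siNT only (0.69).

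Whether responses to poly(I:C) differed was tested with interaction terms of that edgeR model. Against Mock, the siNT response differed for 4 of the 10 genes (AGO1, DICER1, DROSHA and PRKRA), beside 31.0% of all genes. The siELMO1 response differed from Mock for 5 (AGO1, AGO2, AGO4, DGCR8 and PRKRA), beside 28.3%, and from siNT for 5 (AGO2, DGCR8, DICER1, DROSHA and XPO5), beside 34.5%. With scaling by library totals alone, the share of called genes with a higher value went from 48.3% to 64.8% for siNT against Mock and from 48.6% to 60.4% for siELMO1 against Mock.

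To compare genes with each other, counts were divided by transcript length and scaled to sum to 1000000 in each library (TPM). In Mock cells at 0 h the order was TARBP2 (56.0 ± 3.0 TPM, SD, n = 3), PRKRA (40.5 ± 0.24), DROSHA (40.2 ± 0.58), DICER1 (34.8 ± 1.9), DGCR8 (24.8 ± 0.99), AGO2 (22.7 ± 0.96), XPO5 (19.6 ± 0.51), AGO1 (11.0 ± 0.41), AGO4 (5.88 ± 0.71) and AGO3 (3.94 ± 0.40). PRKRA and DROSHA overlapped over the 3 libraries, and no other neighbors in this order did. These levels are over all transcripts, coding or not. In Mock at 0 h protein-coding transcripts held 42.5% of TARBP2 counts, 16.3% of PRKRA counts and 99.7% of DROSHA counts. The order also depended on the length used. With the union of all exons as the length, DROSHA was highest at 48.4 TPM, with TARBP2 at 35.6, AGO2 at 35.5 and PRKRA at 13.2. AGO2 had the highest mean of the Argonaute mRNAs in every condition, though in siELMO1 at 24 h it was close to AGO1 (8.25 ± 0.07 against 7.46 ± 0.56 TPM), and the union length put AGO1 above it there (12.4 against 11.5 TPM). In siNT at 0 h DROSHA, at 18.1 ± 0.71 TPM, was below its partner DGCR8 at 27.0 ± 0.77, while in the other 5 conditions it was above it.

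**Figure D4:**
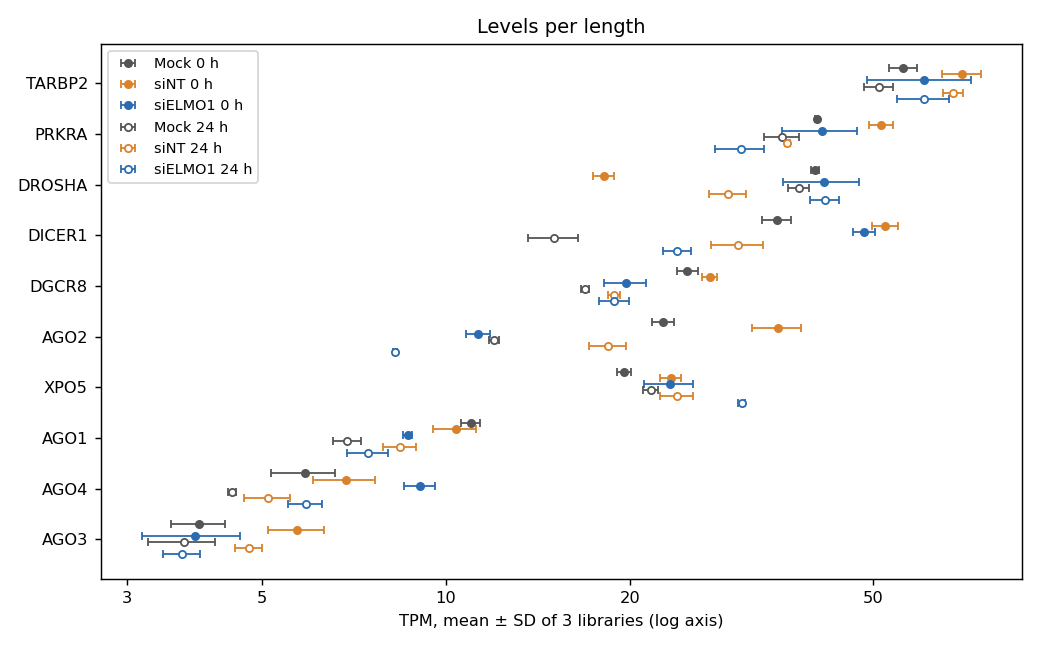
Level per length of the 10 genes in TPM (x axis, log scale) for each condition, as mean ± SD of 3 libraries; gray is Mock, orange siNT and blue siELMO1, filled at 0 h and open at 24 h. By mean over all transcripts, coding or not, and with transcript lengths, TARBP2 is highest and AGO3 lowest in every condition. With the union of all exons as the length, TARBP2 is below DROSHA in Mock at 0 h (35.6 against 48.4 TPM).

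The transcript matrix showed which transcripts held these counts. In every library 93.6% or more of the counts of AGO1, AGO2, AGO3, AGO4, DROSHA and XPO5 were in transcripts annotated as protein coding. For DICER1 this share was 66.5% to 97.5% and for DGCR8 78.1% to 94.9%. AGO1-201 and AGO1-204 have the same length of 13712 bases, and the split between them moved from 2.04% to 47.1% for AGO1-201 between libraries, so it was not read further. TARBP2 had 23.8% to 72.7% of its counts in protein-coding transcripts, and TARBP2-214, annotated for nonsense-mediated decay, held 8.57% to 49.9%.

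PRKRA had the lowest protein-coding share of the 10 genes by mean in every condition. The protein-coding share was 16.3% ± 4.6 (SD, n = 3) in Mock at 0 h and 4.53% ± 2.9 at 24 h. A single retained-intron transcript, PRKRA-215, held 30.5%, 38.3% and 37.0% of PRKRA counts in Mock at 0 h and 69.3%, 68.7% and 69.8% at 24 h. In siNT its share went from 22.2% ± 1.3 to 53.1% ± 5.4, and in siELMO1 from 26.4% ± 5.3 to 58.4% ± 3.4. In each transfection all 24 h libraries were above all 0 h libraries. Counted over protein-coding transcripts alone, PRKRA was 6.98 ± 2.1 CPM in Mock at 0 h and 2.30 ± 1.4 CPM at 24 h, a fall of 1.61 on the log2 scale (edgeR adjusted p = 0.042), where the whole gene rose by 0.31 (adjusted p = 0.00043). This way of counting was chosen after seeing the data. Its CPM were scaled to protein-coding counts alone, so they are not on the scale of the whole-gene CPM.

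CHROMR, a long noncoding RNA gene on the other strand, has exons that cover 815 of the 3498 bases of PRKRA-215 (23.3%), and 841 of the 1770 bases of the main annotated coding transcript PRKRA-201. CHROMR rose with poly(I:C) from 16.4 ± 0.44 to 50.9 ± 3.6 CPM in Mock (3.10-fold, edgeR adjusted p = 7.7e-10), and by 2.85-fold and 3.23-fold in siNT and siELMO1. At 0 h CHROMR was below Mock in siNT (log2 −0.51, adjusted p = 0.0011) and in siELMO1 (−0.55, adjusted p = 0.00067). CHROMR was chosen for description after its values were seen, as were POLR1C and TRMT2A. Whether reads from CHROMR entered the PRKRA counts was not tested, as the deposited counts do not show the strand.

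**Figure D5:**
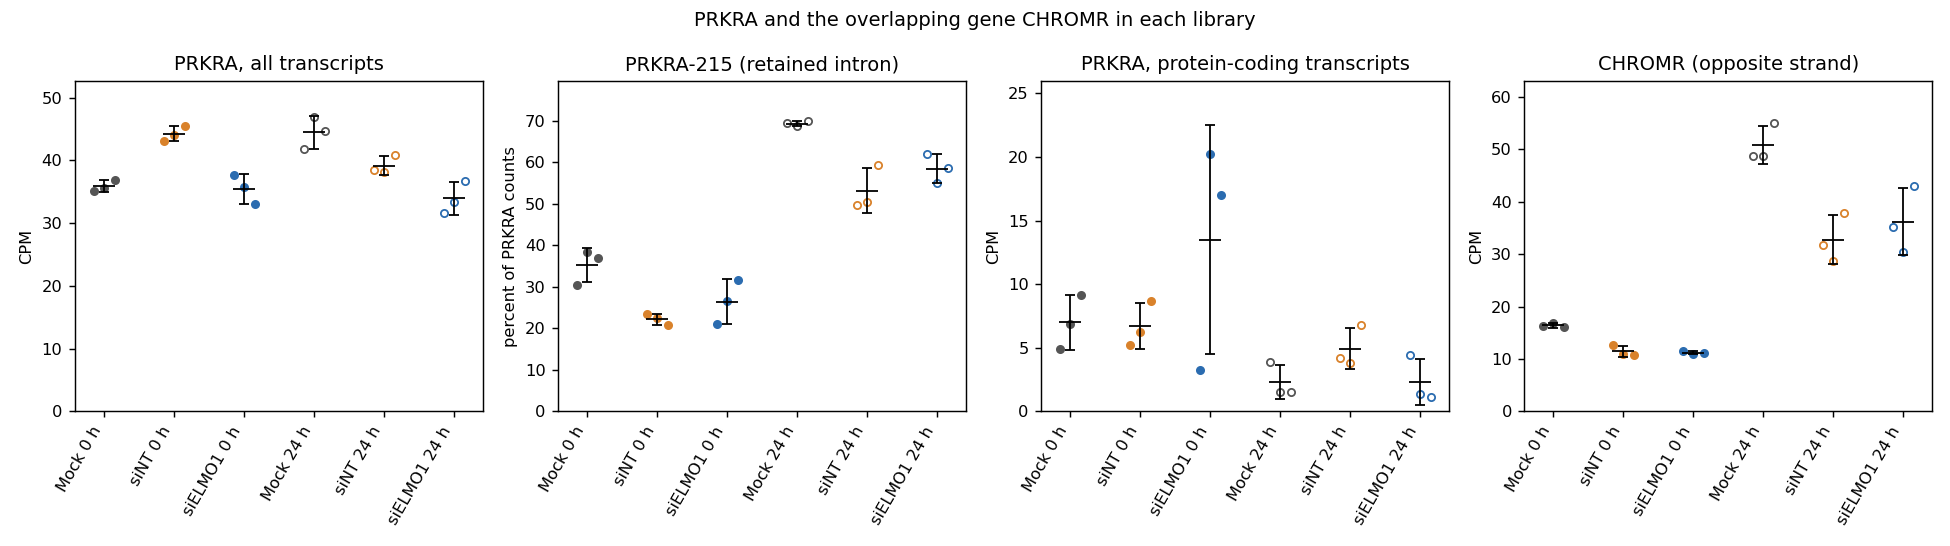
PRKRA in CPM over all transcripts, the percent of its counts in PRKRA-215, PRKRA in CPM over protein-coding transcripts, and the overlapping gene CHROMR in CPM, by condition; points are libraries (filled, 0 h; open, 24 h), bars are mean ± SD and every y axis starts at 0. In Mock, the mean PRKRA-215 share went from 35.2% to 69.3% and the protein-coding level went from 6.98 to 2.30 CPM. The protein-coding CPM were scaled to protein-coding counts alone.

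The proteins that act after Argonaute binding were covered by 25 genes, for GW182 proteins, deadenylases, decapping factors and their partners. In siNT against Mock at 0 h 20 of the 25 were called, 15 higher and 5 lower, with a median log2 fold change of 0.25. Of all genes 51.6% were called, 27.6% higher and 24.0% lower. TNRC6A, a GW182 gene, was 111 to 120 CPM in Mock and 244 to 256 CPM in siNT (log2 1.098, edgeR adjusted p = 1.1e-10). In siELMO1 against Mock 15 were called, 11 higher and 4 lower, beside 50.2% of all genes, 27.9% higher and 22.4% lower. TNRC6B was at 0.56 (edgeR adjusted p = 0.00012) and LIMD1, a scaffold between Argonaute and its effectors, at −0.75 (edgeR adjusted p = 2.1e-09). With poly(I:C) 17 of 25 were called in Mock, 12 higher and 5 lower, beside 60.3% of all genes, 30.7% higher and 29.6% lower. The largest rises were in MOV10, an RNA helicase found with Argonaute (36.3 to 37.2 CPM at 0 h and 218 to 235 CPM at 24 h, log2 2.62), and in XRN1, the 5′ to 3′ exonuclease (69.1 to 79.2 CPM and 337 to 352 CPM, log2 2.22). Both also rose in siNT (1.69 and 1.67) and siELMO1 (2.01 and 1.93). The balance over the 25 genes was otherwise in siNT, where 15 were called, 6 higher and 9 lower. Of all genes 53.8% were called there, 28.6% higher and 25.2% lower. In siELMO1 17 were called, 10 higher and 7 lower, beside 54.9% of all genes, 28.0% higher and 26.9% lower.

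Of 13 genes for the chaperones and partners of Argonaute loading, 8 were lower and none higher when siNT was set against Mock at 0 h, where 51.6% of all genes were called and 24.0% were lower. HSP90AA1, the inducible HSP90 gene, was 2972 to 3045 CPM in Mock and 1900 to 1941 CPM in siNT (log2 −0.64, edgeR adjusted p = 1.3e-07). In siELMO1 against Mock 6 were higher and 3 lower, beside 27.9% and 22.4% of all genes, with CDC37, an HSP90 cochaperone, at 0.48 (adjusted p = 6.3e-07). With poly(I:C), TSN, which encodes a subunit of the passenger-strand nuclease C3PO, fell in all 3 transfections (−0.76, −0.37 and −0.45).

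Of 23 tested cofactors and regulators of processing, 12 were called in siNT against Mock at 0 h, 6 in each direction, a share of 52.2% that is near the background. The largest was LIN28B, which blocks let-7 processing. At 0 h the Mock libraries were at 29.2 to 31.8 CPM, those of siNT at 109.5 to 114 CPM and those of siELMO1 at 22.6 to 26.0 CPM. In siNT it was higher by 1.88 on the log2 scale (edgeR adjusted p = 5.8e-14), and the uridylyl transferase gene TUT7 by 0.50 (adjusted p = 0.00021). In siELMO1 10 of the 23 were lower than in Mock and 4 higher, beside 22.4% and 27.9% of all genes, among the lower ones NCBP1 (−0.77) and METTL3 (−0.75). ADAR, which edits double-stranded RNA, rose with poly(I:C) in Mock by 1.88, in siNT by 1.64 and in siELMO1 by 1.77 (adjusted p of 2.1e-15, 2.7e-14 and 5.8e-15).

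Of 9 tested genes that modify Argonaute or turn it over, 7 were called in siNT against Mock at 0 h and 6 in siELMO1, beside 51.6% and 50.2% of all genes. ZSWIM8, a ubiquitin ligase subunit for target-directed microRNA decay, was higher with both siRNAs (log2 0.99 and 0.67, edgeR adjusted p of 3.4e-11 and 3.9e-09). ANKRD52, a subunit of the phosphatase complex that acts on AGO2, was higher in siELMO1 than in Mock (1.02, adjusted p = 3.5e-11). ZC3HAV1, an interferon-induced RNA-binding protein, rose with poly(I:C) by 3.41 in Mock, 2.15 in siNT and 2.82 in siELMO1. Of 16 genes of the piRNA pathway, the germline small RNA system, 6 had no count in any library and only 4 were tested. Among these, MOV10L1 was higher in siELMO1 (3.12 to 4.24 CPM) than in Mock (0.918 to 1.52 CPM) at 0 h (log2 1.63, edgeR adjusted p = 6.0e-05).

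Of 84 genes named as microRNA hosts, 29 were tested. With poly(I:C) 17 of the 29 were called in Mock, a share of 58.6% beside 60.3% of all genes. Of these 14 were higher and 3 lower, where 30.7% of all genes were higher and 29.6% lower. MIR22HG, the host of miR-22 (seed shown above), was 22.4 to 24.1 CPM in Mock and 47.8 to 51.8 CPM in siNT at 0 h (log2 1.11, edgeR adjusted p = 3.2e-11). MIR100HG, the host of miR-100, was 72.1 to 79.9 CPM in Mock at 24 h and 24.7 to 31.9 CPM in siELMO1 (log2 −1.38, adjusted p = 1.2e-09). MIR155HG, the host of miR-155, was low throughout, at 0.653 to 3.39 CPM, and was lower in siELMO1 than in siNT at 0 h (log2 −1.46, adjusted p = 0.00036). MIR4432HG had no count in the 9 libraries at 0 h and reached 0.617 to 1.06 CPM in Mock at 24 h.

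Genes with the most similar pattern over the 6 condition means were found for the members that spanned more than 1 on the log2 scale, by the root mean square difference of centered log2 means. For AGO2 the nearest were UGDH (0.13), FAH (0.14), TMX2P1 (0.16), WDR17 (0.19) and TSPAN12 (0.21). For DICER1 they were FZD3 (0.08), USP46 (0.09), CDC42EP3 (0.09), DENND5B (0.10) and PTPRS (0.10), and for DROSHA WIPI2, ZNF18, TMEM202-AS1, TDO2 and CSK, all at 0.06 to 0.07. Mean WIPI2 levels at 0 h, for example, were 81.1 CPM for Mock, 36.4 CPM for siNT and 91.2 CPM for siELMO1. Others were low, such as FZD3 at 0.548 to 3.16 CPM and TMEM202-AS1 at 0.493 to 1.73 CPM over all libraries. The pattern differences describe 6 points that share libraries, and the list was drawn from 15167 genes.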

How the data were processed

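RNA of EA.hy926 cells was sequenced in 18 libraries, 3 for each of 6 conditions. Per the study's methods, the authors prepared the libraries with a stranded mRNA kit, aligned untrimmed paired-end reads to GRCh38 with STAR, annotated them with Gencode and quantified them with StringTie. The deposited matrices hold estimated counts (expected counts, whole numbers) per gene and per transcript, made by the authors with StringTie's script and not normalized. Such counts come from coverage, so they are not numbers of fragments. Tool versions and the use of strand in counting are not given in the sources used here.

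As in the study, a gene was tested if its counts summed to 100 or more and its highest CPM was 1 or more (15167 of 62754). A single edgeR model (4.0.16, R 4.3.3) with TMM factors (0.958 to 1.06) was fitted to all 18 libraries, and 12 comparisons were tested with the two-sided quasi-likelihood test and Benjamini-Hochberg adjustment over all genes tested. A gene was called at adjusted p under 0.05. Intervals are the estimate ± 1.96 SE. The biological coefficient of variation was 12.2%. TPM was computed here from the transcript counts and Gencode lengths.

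The labels number the replicates and state no pairing. Mock and siNT libraries at 24 h with the same number correlated weakly (r of 0.116, 0.198 and 0.284 across genes, which are not independent). For siELMO1 at 24 h, r ran from 0.025 to 0.322 with Mock and from 0.042 to 0.352 with siNT at that time. These values do not settle whether the numbers pair libraries, and the main model did not use them. The 10 genes, the lists of other genes and the tests were chosen with earlier results of these data known. All 10 genes are named, with ELMO1, IFIT1 and CCL5 as checks. Of each other list, up to 2 genes per direction with the largest changes among those called were taken, and a few are described. For members spanning over 1 on the log2 scale, the 5 genes of nearest pattern are named. Alternatives were DESeq2 1.42.0, limma-voom 3.58.1, other scalings and filters, a replicate block, fewer groups, no mitochondrial genes, each library left out, and protein-coding transcripts alone.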

Additional observations from a re-analysis of the deposited data

Results flagged for a closer look

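The poly(I:C) response (24 h against 0 h) of 8 of the 10 genes differed between transfections by the interaction test of edgeR, with 14 differences called in all. Of all genes tested, 52.1% were called in at least 1 of the 3 interaction terms. Values are differences between log2 responses, and the cause of none was tested. For AGO1 the response was less negative than in Mock by 0.27 in siNT (adjusted p = 0.029) and by 0.30 in siELMO1 (adjusted p = 0.017). The siNT value was not called when siNT replicate 2 or 3 at 0 h, Mock replicate 3 at 24 h or siNT replicate 2 at 24 h was left out (adjusted p up to 0.089). For AGO2 the siELMO1 response was less negative than that of Mock by 0.44 (adjusted p = 0.0022) and than that of siNT by 0.55 (adjusted p = 0.00019). For AGO4 the siELMO1 response was more negative than in Mock, by −0.37 (adjusted p = 0.038), and 8 of 12 fits without 1 library did not call it (adjusted p up to 0.13). It kept its call only without Mock replicate 3 or siELMO1 replicate 1 or 3 at 0 h or without siELMO1 replicate 3 at 24 h.

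For DICER1 the siNT response was less negative than in Mock by 0.36 (adjusted p = 0.0057). The siELMO1 response differed from that of siNT by −0.26 (adjusted p = 0.03), which 7 of 12 fits without 1 library did not call (adjusted p up to 0.085): siNT replicates 2 and 3 and siELMO1 replicate 2 at 0 h, and siNT replicates 1 and 2 and siELMO1 replicates 1 and 3 at 24 h. For PRKRA, which rose in Mock, the response was lower by −0.48 in siNT (adjusted p = 0.00051) and by −0.38 in siELMO1 (adjusted p = 0.0048). DROSHA differed between siNT and Mock by 0.66 (adjusted p = 0.00096) and between siELMO1 and siNT by −0.67 (adjusted p = 0.00072). DGCR8 in siELMO1 differed from Mock by 0.37 (adjusted p = 0.0013) and from siNT by 0.48 (adjusted p = 8.6e-05), and XPO5 in siELMO1 differed from siNT by 0.36 (adjusted p = 0.0017).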

How the results depend on the processing

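Over the planned settings of tool, scaling, filter, block and samples, 1167 of 1200 log2 fold changes of the 10 genes kept their direction and side of the threshold, 19 lost the call, 14 gained it and 0 reversed. With each library left out these numbers were 849, 37, 14 and 0 of 900. With the replicate number as a block, the call of only 1 of 120 values changed. This was the XPO5 response of siNT against Mock, which became called at −0.20 (edgeR adjusted p = 0.035). Scaling by library totals changed 7 of 120 calls. Lost were PRKRA in siNT against Mock at 24 h (−0.16, edgeR adjusted p = 0.068), XPO5 in Mock at 24 h against 0 h (0.13, edgeR adjusted p = 0.074) and the AGO4 response of siELMO1 against Mock (−0.31, edgeR adjusted p = 0.083). Gained were DICER1 in siELMO1 against siNT at 0 h (−0.15, edgeR adjusted p = 0.042), AGO3 in Mock at 24 h against 0 h (−0.36, edgeR adjusted p = 0.005), and DGCR8 in siNT against Mock at 24 h (0.15, edgeR adjusted p = 0.034) and in siELMO1 at 24 h against 0 h (−0.14, edgeR adjusted p = 0.044). XPO5 in siNT against Mock at 24 h lost its call in 5 of the 6 fits without 1 of its libraries.

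Counting protein-coding transcripts alone, a setting chosen after seeing the data, reversed 7 of 120 values, and a further 10 lost the call and 2 gained it. For PRKRA, siNT against Mock became −0.0601 at 0 h (edgeR adjusted p = 0.95) and 1.104 at 24 h (edgeR adjusted p = 0.17). siELMO1 against siNT at 0 h became 1.01 (edgeR adjusted p = 0.17) and siELMO1 against Mock at 24 h 0.0199 (edgeR adjusted p = 0.99). Mock at 24 h against 0 h became −1.61 (edgeR adjusted p = 0.042), and its difference from the siNT response 1.16 (edgeR adjusted p = 0.36). TARBP2 in siELMO1 against siNT at 0 h became 0.68 (edgeR adjusted p = 0.10). Of the 10 genes, 5 were then called in siNT against Mock at 24 h, and 2 and 3 in the responses of siNT and siELMO1 against Mock. The whole-gene counts include transcripts that do not code for protein, and transcript shares are estimates whose error is not given.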
